A study of Caenorhabditis elegans with 2 samples.

Results

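Small nuclear RNA genes and the spliced leader genes that belong to the same class number 129 among the 46890 nuclear genes of the Caenorhabditis elegans gene models (assembly WBcel235, the same sequence as ce11). They were taken by their annotated biotype alone, and comprise 12 sls-1 genes, 18 sls-2 genes and 99 others. The others include mir-1831, an entry of 22 bp with a microRNA name that lies inside sup-39, and the overlapping entries T27E4.12 and T27E4.22, so not all 99 are separate loci. Whole worms of strain OP719 were profiled by chromatin immunoprecipitation and sequencing, and were collected as L4 larvae at 66 hours, after hatchlings from bleached mothers had been synchronised by starvation at L1. The strain carries wgIs719, an integrated transgene that encodes tag-97 fused to TY1, EGFP and 3xFLAG and holds a working unc-119 copy in an unc-119 (tm4063) background. The labels give svh-5 as the target of the insertion, and the gene models list no tag-97. An anti-GFP antibody was used to precipitate the fusion from 2 biological replicates, which form the study's 1 group, and chromatin had been sheared to 200 to 800 bp. The strain is a single transgenic line, the tissue is the whole animal, and an input or control precipitation was not analysed here. With 1 group, no contrast between conditions exists. The deposited values are region lists without read counts, so the depth behind each value is unknown.

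Small nuclear RNAs are the RNA parts of the spliceosome, which removes introns in the nucleus. In nematodes, a spliced leader RNA donates its first bases to the 5′ end of a separate pre-messenger RNA, a reaction called trans-splicing. SL1 leaders, made from the sls-1 genes, are joined mostly to genes with their own promoter or at the head of an operon, and SL2 leaders, made from the sls-2 genes, to downstream genes of operons. Most of these RNAs bind the ring of Sm proteins, and their short genes are transcribed from compact promoters that carry a proximal sequence element close upstream of the start.

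The forms of the spliced leader genes behind the class comparison are shown first, from the RefSeq assembly, with the leader of 22 bases in capitals. The first is the SL1 form of sls-1.11 (V:17121670-17121767, minus strand), the second the shortened sls-1.5 (V:17126556-17126623, minus strand), which starts at base 31 of the longer form and so has no leader. They are followed by the SL2 form of sls-2.1 (II:5844865-5844974, plus strand) and by the leader-bearing genes F20D1.21 (X:14966804-14966900, plus strand) and F35B3.10 (X:17018509-17018612, minus strand).
sls-1.11: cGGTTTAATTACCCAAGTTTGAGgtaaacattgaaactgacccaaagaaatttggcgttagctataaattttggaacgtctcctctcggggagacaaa
sls-1.5: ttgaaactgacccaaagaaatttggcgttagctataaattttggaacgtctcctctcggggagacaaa
sls-2.1: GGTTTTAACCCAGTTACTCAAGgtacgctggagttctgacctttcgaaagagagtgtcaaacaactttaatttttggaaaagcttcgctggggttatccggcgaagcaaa
F20D1.21: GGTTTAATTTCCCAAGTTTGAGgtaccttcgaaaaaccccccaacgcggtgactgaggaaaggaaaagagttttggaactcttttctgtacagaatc
F35B3.10: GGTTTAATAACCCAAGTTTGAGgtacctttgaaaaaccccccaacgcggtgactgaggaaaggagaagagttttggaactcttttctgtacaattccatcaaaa

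All 10 sls-1 genes of 98 bp shared 1 leader, and the other 2, sls-1.5 and sls-1.1, had the short form of 68 bp. The 18 sls-2 genes held 11 distinct leaders, and 4 of them had the leader of sls-2.1. The leaders of F20D1.21 and F35B3.10 each differed from the sls-1 leader by 1 base and from that of sls-2.1 by 9 and 7 bases, although neither gene is named as a spliced leader gene and neither lies near the sls-1 array.

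Among the genes outside the leader classes, M163.13 (X:14476867-14476946, plus strand) carried one of the highest signals. Its sequence is given because it belongs to no sequence group of the class and the text returns to it. Its exact sequence occurs in 1 place in the genome.
M163.13: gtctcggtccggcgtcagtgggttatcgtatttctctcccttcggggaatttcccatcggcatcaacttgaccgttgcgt

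Each gene was given the highest signal among ranked regions whose summit lay between 1000 bp upstream and 200 bp downstream of its 5′ end. The signal is the authors' own value from peak calling, on a scale that is not stated, and orders regions within a list. The main list is the joint ranking of both replicates by irreproducible discovery rate (IDR), a measure of whether a region holds the same rank in 2 inputs. A small IDR marks a reproducible region. IDRs given below are those of the joint ranking unless another list is named.

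A ranked region lay in the window of 112 of the 129 genes (86.8%), against 70.8% of all nuclear genes. That background includes 15363 genes of biotype piRNA, of which 7407 had a region. A region lay at 16108 of 19973 protein-coding genes, 310 of 346 small nucleolar RNA genes and 556 of 612 transfer RNA genes. The share of the class is therefore not particular to it. Most regions of the class were of ordinary height: the median highest signal was 24.8 for the small nuclear RNA class and 23.3 over the 33207 genes with a region. The class had a small upper tail. Of its genes, 10 (7.75%) reached the top 5% of genes with a region, a level that 3.54% of all genes reached. Of these 10 genes, 3 were sls-1, 1 was sls-2 and 6 were others. The highest region of each of the 10 aligned to more than 1 place in the genome. For comparison, the median was 31.2 for 556 transfer RNA genes, 28.4 for 310 small nucleolar RNA genes and 23.4 for 16108 protein-coding genes.

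Reproducible regions were few. A region of the joint thresholded list lay at 3 members (2.33%, against 0.644% of all genes), namely W05B2.8, sls-2.4 and M163.13. The conservative thresholded list, made by ranking the replicates against each other, held these and C52E4.8, or 4 members (3.1%, against 0.39%). The thresholded list of replicate 1 had a summit in the window of W05B2.8 alone (0.775%, against 0.126%). The replicate 1 region of 45.1 that overlaps the joint region of C52E4.8 was in this list too, but its summit lay outside the window of C52E4.8. The list of replicate 2 held 0 of the 129, where 0.149% of all genes were called, a share that corresponds to less than a single member.

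Counting ranked regions by their global IDR gave 11 members at 0.05 or below (8.53%, against 1.54% of all genes), of which 3 were sls-1 and 3 were sls-2. At 0.01 or below there were 5 members (3.88%, against 0.67%). These were the 3 genes of the joint thresholded list and the sls-1 genes sls-1.11 and sls-1.5. The regions of these sls-1 genes met the IDR of the thresholded list but were missing from it, and no source used here describes the filter that left them out. Ranking the replicates against each other gave IDRs of 0.00376 for the sls-1.11 region and 0.0487 for the sls-1.5 region.

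**Figure D1:**
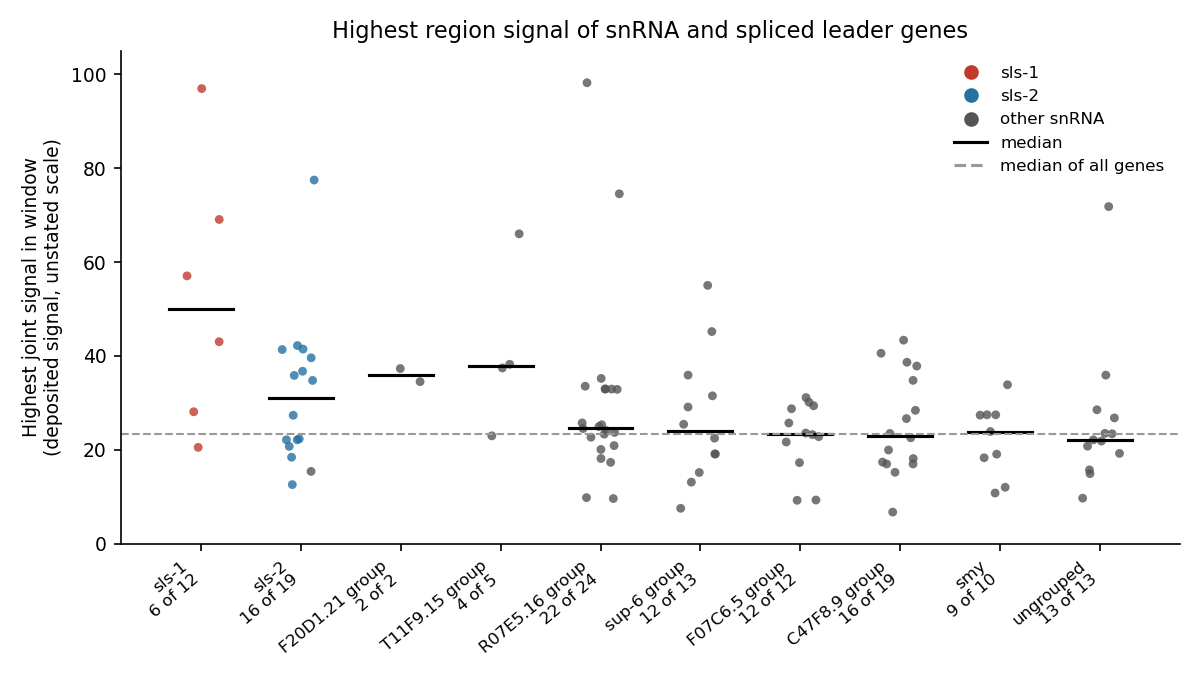
Highest joint signal (vertical axis, deposited signal on an unstated scale) of every member with a ranked region, by sequence group (horizontal axis, with the number of genes that have a region of the number in the group); points are genes, black bars medians, the dashed line the median of all genes. The sls-1 genes have a median of 50.05 over 6 genes, and W05B2.8 (98.2), F54D8.7 (74.5), M163.13 (71.8) and C52E4.8 (66.0) stand above the rest of their groups.

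The sls-1 genes combined the fewest windows with a region and the highest signals. Only 6 of the 12 had a ranked region (50%), with a median of 50.05 and a range of 20.5 to 96.9. The 15 sls-2 genes with a region, of 18, had a median of 34.8 and a range of 12.6 to 77.5. The 91 other genes with a region, of 99, had a median of 23.7 and a range of 6.75 to 98.2. The ranges of both leader classes lay within that of the other genes, and genes are not replicates, so the order of the classes is a description. The ratio of the sls-1 median to that of the other genes was 2.11, and 1.38 in replicate 1 alone. With genes without a region entered at 0 it was 0.438, an order opposite to the first. The sls-2 ratio was 1.47, but 0.926 in a window from 300 bp upstream to 200 bp downstream, where the sls-2 median was the lower.

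The sls-1 genes lie in 1 array with 5S ribosomal RNA genes, which encode an RNA of the large ribosomal subunit. The array spans 16205 bp (V:17115903-17132107) and holds 14 5S genes and the 12 sls-1 genes, 11 of which are on the minus strand. The 5′ ends of the sls-1 genes were a median of 976 bp apart, with a range of 946 to 2637 bp. A window of the length used here therefore covers about a whole repeat unit, and what is counted for an sls-1 gene is counted for the 5S gene and the spacers beside it as well.

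The highest region of the sls-1 genes belonged to sls-1.11 (V:17122041-17122336). Its signal was 96.9 in the joint ranking, 33.9 in replicate 1 and 58.4 in replicate 2, and its IDR was 0.00201. Its summit was 422 bp upstream of sls-1.11 and 245 bp beyond the start of a 5S gene, so it fell in the spacer between that 5S gene and sls-1.9 rather than at the start of sls-1.11. The next repeat unit gave sls-1.9 a region of 57.1, whose summit was 320 bp upstream and 147 bp past the start of the next 5S gene. The IDR of this region was 0.012 in the joint ranking and 0.184 with the replicates ranked against each other. Replicate 2 had 41.5 at the same summit. Replicate 1 had 16.2 beside it, and its highest signal in the window, 17.65, came from another region with its summit 17 bp inside sls-1.9. Both joint regions aligned to 15 places in the genome.

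The last of the strong array regions was that of sls-1.5, the gene without a leader (V:17126842-17127137). It had a signal of 69.1, with 21.1 in replicate 1, 45.6 in replicate 2 and an IDR of 0.00923. It lay 367 bp upstream of sls-1.5, in a wider gap of the array, 1142 bp beyond the nearest preceding 5S start. The other short gene, sls-1.1, had 43.0 (replicates 19.2 and 21.8) from a region 770 bp upstream, outside the last unit. The remaining ones were sls-1.12 at 28.1 and sls-1.6 at 20.5.

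Regions were unevenly spread over near-identical units. Of the 10 sls-1 genes with the same sequence of 98 bp, 4 had a region in the joint ranking. The genes sls-1.2, sls-1.3, sls-1.7, sls-1.8 and sls-1.10 had none there and none in either replicate, and sls-1.4 had one in replicate 2 only (29.7). In all 5 sls-1 regions found by both replicates, replicate 2 had the higher deposited value. As a percentile of genes within each list, sls-1.12 was higher in replicate 1, at 36.1 against 26.4. No highest region of an sls-1 gene had its summit within 200 bp of the 5′ end (0 of 6).

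**Figure D2:**
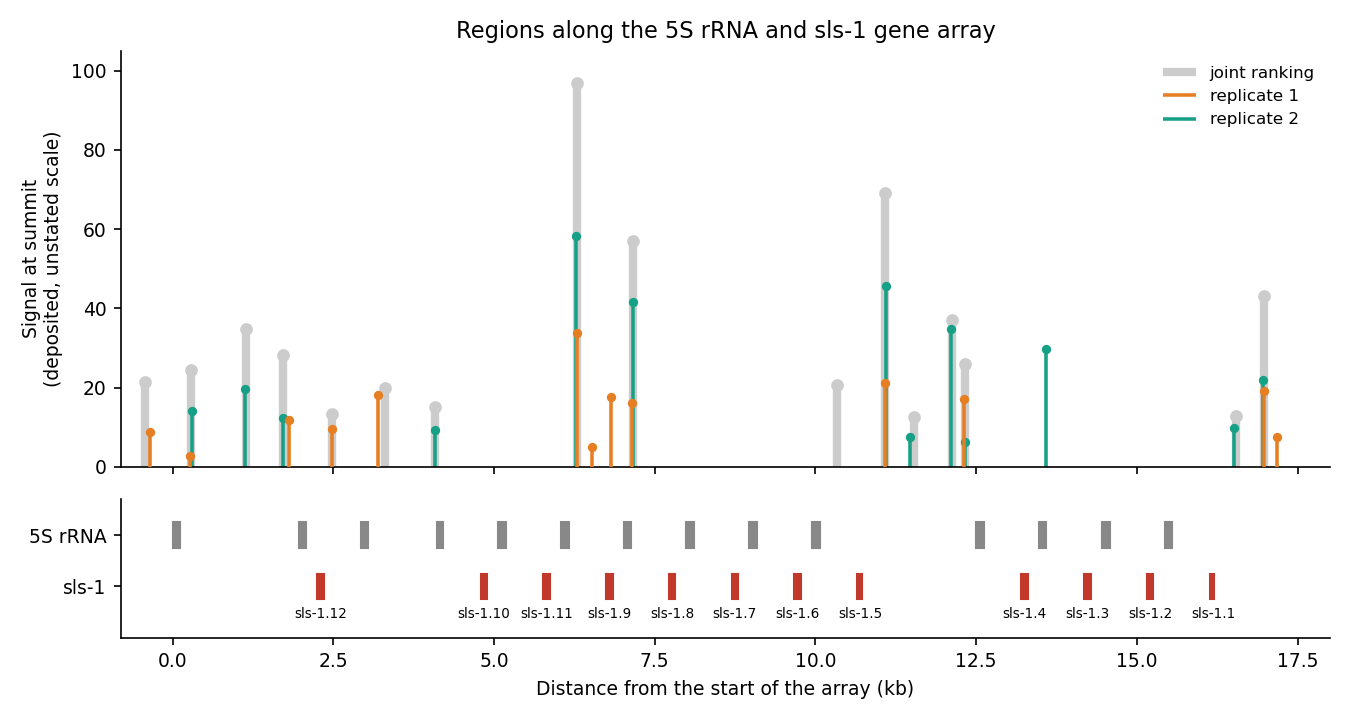
Ranked regions along the array of 5S rRNA and sls-1 genes: position in kb from the start of the array (horizontal axis) and deposited signal at the summit on an unstated scale (vertical axis), for the joint ranking (grey), replicate 1 (orange) and replicate 2 (green), with genes drawn to scale below. The strong joint regions, at 96.9, 57.1 and 69.1, sit between genes or beside 5S genes, and several units with identical genes have none.

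The sls-2 genes are scattered through the genome, and their regions lay closer to the genes. The summit was within 200 bp of the 5′ end for 10 of 15 (66.7%). The highest was at sls-2.4 (I:4172179-4172474), a gene with the same leader as sls-2.1. Its joint signal was 77.5 with an IDR of 0.00404, and the regions of the replicates that overlapped it had 50.3 and 43.0. Both replicates were thus high here, although the summit of replicate 1, 211 bp downstream of the 5′ end, fell just outside the window and that of replicate 2 inside it. The summit of the joint region, 121 bp downstream, was also 21 bp from the start of the noncoding RNA gene R12E2.18.

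Next came sls-2.1 (II:5844605-5844900), with 42.2 in the joint ranking, 44.1 in replicate 1 and 23.3 in replicate 2. The joint summit was 112 bp upstream, and that of replicate 1 was 6 bp inside the gene. Replicate 1 was the higher there, at percentile 99.4 of genes in its list against 86.5 in replicate 2. This was the opposite of sls-1.11, sls-1.9 and sls-1.5. The divergent pair sls-2.14 and sls-2.15 had 41.5 and 41.4, but each summit lay past the other gene of the pair, 689 and 702 bp upstream. The fifth was sls-2.2 at 39.6, from a region 716 bp upstream that aligned to 32 places. The lowest was sls-2.3 at 12.6, which carries the same leader as sls-2.1 and sls-2.4. The genes sls-2.7, sls-2.10 and sls-2.17 had no joint region. The spread within genes of a shared leader was therefore as wide as that of the class.

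The pair with leaders like SL1, F20D1.21 and F35B3.10, had joint signals of 37.3 and 34.5. In F20D1.21 the replicates had 12.02 and 6.95 in the window, and in F35B3.10 they had 20.9 and 16.5. These are moderate values, with IDRs of 0.613 and 0.498, and neither region was reproducible by the IDR used here.

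Among the other small nuclear RNA genes, the largest sequence group was the 24 genes at least 75% identical to R07E5.16 or to one another. The group's median was 24.8, close to that of all genes, but it held the highest member of all, W05B2.8, and the fourth, F54D8.7. W05B2.8 lies within the dynein heavy chain gene dhc-4. Its region (III:10989536-10989831) had a joint signal of 98.2, 61.2 in replicate 1 and 46.4 in replicate 2, an IDR of 0.00112 and a summit 5 bp inside the gene. F54D8.7 (III:5080819-5081114), with 101 of the same bases, had 74.5 (replicates 31.3 and 36.7, IDR 0.0295) and a summit 69 bp upstream.

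W05B2.8 is 1 of 14 genes annotated with exactly the same 102 bp, a sequence that occurs at 17 places in the genome. The annotated 101 bp of F54D8.7 also occur at 17 places, so F54D8.7 is a copy annotated 1 base shorter. Of the 17 members with such a sequence, 16 had a region, from 9.64 to 98.2 with a median of 24.1. F54D8.7 at 74.5 was the second highest of them, and the other copies were far lower. Among the 14 genes of 102 bp, the 13 with a region had a median of 23.7, and K09C6.12 followed W05B2.8 at 35.2. K09B11.12 had 33.6 with its summit 3 bp inside the gene, and C28A5.7 had 32.9 at 25 bp upstream. R07E5.16 itself had 25.4 from a region 690 bp upstream, and K09B11.15 had none. The region at W05B2.8 aligned to 20 places, and no source used here says how reads that fit several copies were placed; the part of this in the spread between copies was not tested.

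M163.13 belongs to no sequence group. Its region (X:14476691-14476986) had a joint signal of 71.8, with 32.1 in replicate 1, 40.01 in replicate 2 and an IDR of 0.0061. The summit fell 28 bp before the gene, and the region aligned to 2 places. Like those of W05B2.8 and F54D8.7, this summit was close to the start of the gene, and both replicates had high signals. In the own lists of replicates 1 and 2, the IDRs were 0.00588 and 0.208 at W05B2.8 and 0.847 and 0.254 at F54D8.7. At M163.13 they were 0.435 and 0.0944. M163.13, W05B2.8, F54D8.7 and sls-1.11 were the members whose own signals in the window were in the top 5% of genes in both replicates. The window edge matters here. Overlapping regions had 50.3 and 43.0 at sls-2.4 and 45.1 and 30.7 at C52E4.8, but their replicate 1 summits lay outside the window. These 4 genes are 3.1% of the class, against 0.625% of all genes.

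C52E4.8, of the T11F9.15 group, shared its region (V:11980084-11980379) with the window of snr-4, which encodes an Sm protein of the same ribonucleoprotein particles. The joint signal was 66.0 with an IDR of 0.0111. The overlapping regions of the replicates had 45.1 and 30.7, and the summit of replicate 1, 283 bp downstream of the 5′ end, was outside the window of C52E4.8. The other members of this group had 38.2 at T11F9.15, 37.5 at F10D2.13 and 22.995 at K03B8.10, while T11F9.16 had none. The group's median was 37.8 over 4 genes.

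The sup-6 group takes its name from a suppressor gene; sup-6 and sup-39 are known as U1 RNA genes whose mutant forms suppress splice-site mutations. T08G5.11 (V:14028573-14028868) was the highest of the 12 with a region, at 55.0, with 22.8 and 20.7 in the replicates, an IDR of 0.0341 and a summit 86 bp upstream. T27E4.11 followed at 45.2, with 15.98 in replicate 1. Replicate 2 had no region in its window, and an overlapping one of 25.5 had its summit 203 bp downstream. The gene sup-39 had 35.9. The group's median was 24.0.

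In the C47F8.9 group, Y54G9A.8 was highest at 43.4 (replicates 22.2 and 26.4, 161 bp upstream), and the median was 23.04 over 16 genes. The F07C6.5 group ran from 9.27 to 31.1 with a median of 23.4. The smy genes, which code for small Sm-bound RNAs of nematodes, ran from 10.8 to 33.9 with a median of 23.9, and smy-8 was the highest. None of these groups stood clear of the median of all genes.

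The lowest signals were at F56H6.15 (6.75), C27H5.11 (7.56) and F38E11.11 (9.27), and no region of either replicate lay in their windows. Besides the 6 sls-1 and 3 sls-2 genes named above, 8 members had no joint region. They were F15H9.5, F15H9.6, F40G12.13, F54C8.10, K09B11.15, R05D7.6, T11F9.16 and smy-7. Of the 17 without a joint region, 12 had none in either replicate.

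The replicates were compared at the members' highest regions. Both had an overlapping region at 59 of 112 members, replicate 1 alone at 16, replicate 2 alone at 20 and neither at 17. Replicate 2 had the higher deposited value at 30 of the 59, so neither replicate was higher throughout. The 2 lists need not share a scale: over all genes the median highest signal was 13.9 in replicate 1 and 15.9 in replicate 2. These counts therefore compare deposited values, not ranks. By class, replicate 2 was higher at 5 of 5 sls-1 genes, 5 of 13 sls-2 genes and 20 of 41 others. With windows in place of overlap, 59 members had a region in both replicates' own lists (45.7%, against 31.4% of all genes). Across these 59 genes, which are not independent and in part share sequence and regions, the Spearman correlation of the replicates' signals was 0.165, against 0.213 across 14722 genes of all kinds.

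The class medians moved with the replicate. The sls-1 genes had a median of 19.2 in replicate 1 (5 genes) and 35.6 in replicate 2 (6 genes), where the other small nuclear RNA genes had 13.9 and 17.01. The sls-2 genes had 20.2 in replicate 1 (13 genes) and 17.8 in replicate 2 (12 genes). The sls-1 median was thus above that of the others in both replicates, and the sls-2 median only slightly so in replicate 2.

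**Figure D3:**
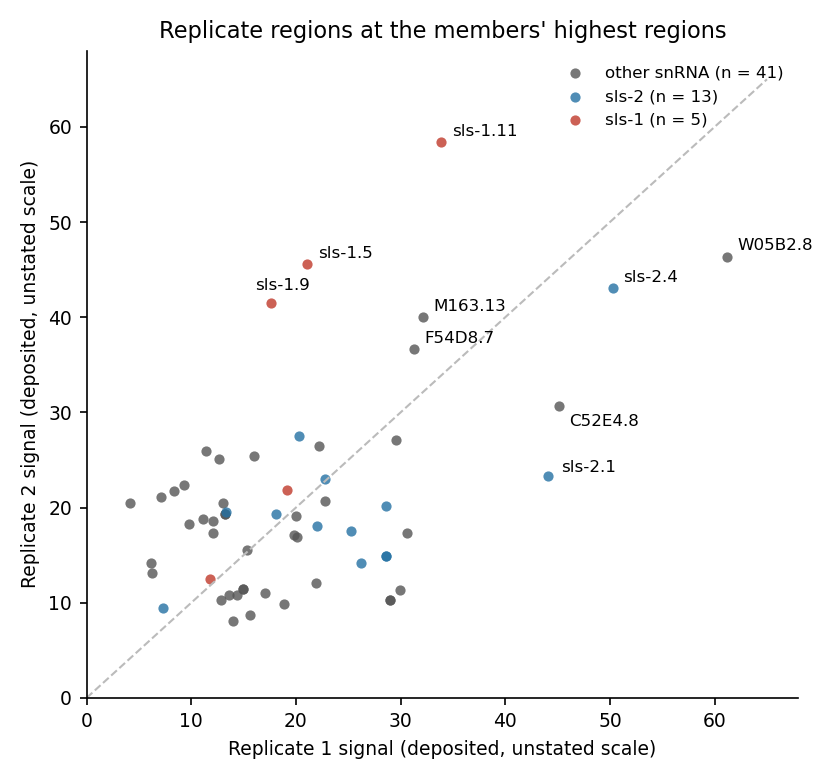
Signal of the region of replicate 1 (horizontal axis) and of replicate 2 (vertical axis) that overlaps each member's highest joint region, for the 59 members with both; both axes are deposited signals on an unstated scale and the dashed line marks equal values. sls-1.11, sls-1.5 and sls-1.9 lie above the line, while sls-2.1 (44.1 and 23.3) and C52E4.8 (45.1 and 30.7) lie below it. The 2 lists need not share a scale, so equal values need not be equal ranks.

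Summits lay near the 5′ ends more often than over all genes. The highest region's summit lay within 200 bp of the 5′ end for 56 of 112 members (50%), against 34.7% of genes of all kinds with a region. The share was 50.5% in the others, 66.7% in sls-2 and 0% in sls-1, and 58.8% in transfer RNA genes. Counting all ranked summits, the 100 bp just upstream of the start held 17.1 per 100 members, against 9.86 per 100 genes of all kinds. The bin from 100 to 199 bp downstream held as many, 17.1 per 100 members, against 11.4 per 100 genes of all kinds. Summits were thus as frequent there as just upstream. The bin from 301 to 400 bp upstream held 5.43 per 100 members, the fewest of the window.

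The highest regions of 60 members aligned to more than 1 place in the genome and those of 52 to a single place. The first had a median signal of 27.9 and 71.7% of summits within 200 bp of the 5′ end, the second 23.4 and 25%. The highest signal among the 52 was 43.4, below the 44.6 that marks the top 5% of genes with a region. All members in that top 5% were therefore among the 60. A region over a repeated gene aligns to the copies of that gene, so the number of places depends on the position of the summit by construction. The part of repeated sequence in the signal was not tested. Genes inside a protein-coding gene, of which 58 had a region, had a median of 24.2, and the 54 outside had 26.1. For 45 members the summit was nearer to the 5′ end of a gene of another kind, so the region cannot be assigned to the small nuclear RNA gene alone.

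**Figure D4:**
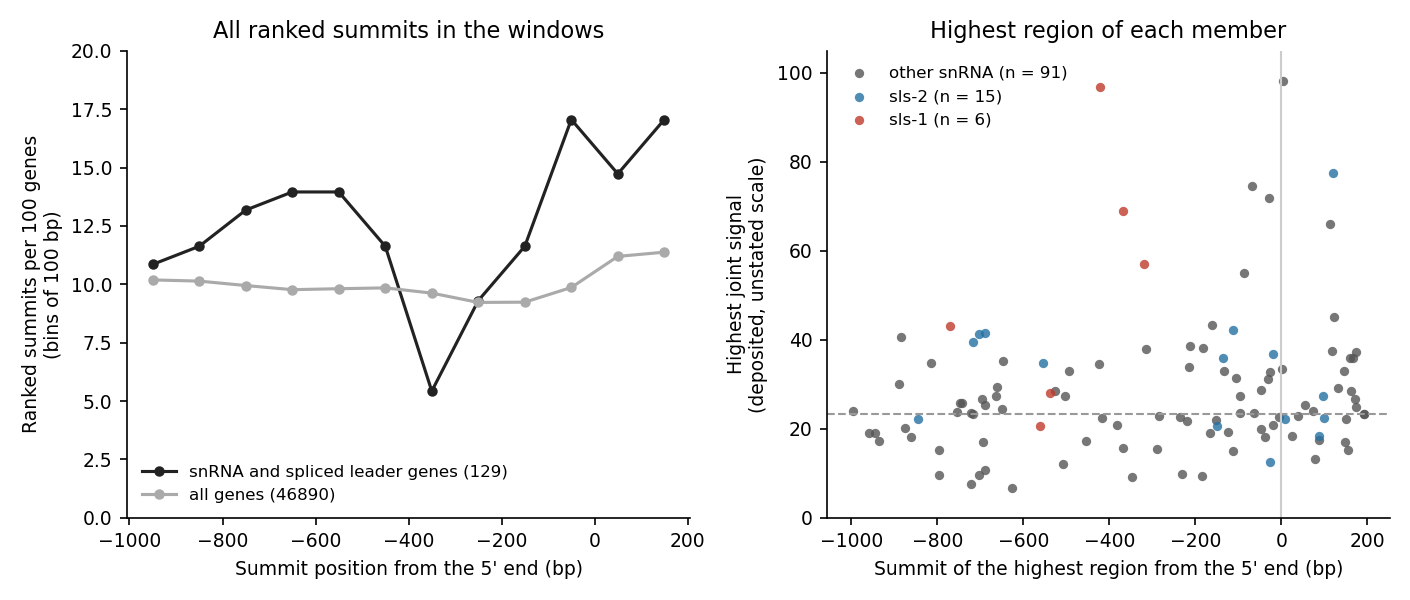
Left, ranked summits per 100 genes in bins of 100 bp along the window (bp from the 5′ end), for the members (black) and all genes (grey). Right, highest joint signal (deposited, unstated scale) against the position of its summit for each member, with the dashed line at the median of all genes; the high values of the other class cluster near the start, and those of sls-1 lie from 320 to 770 bp upstream.

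Many members shared short words in the sequence just upstream. In the 100 bp before the start, counted on both strands and with each of 119 distinct sequences once, 3 words of 6 bases were the commonest. The word AACCCG was in 43 sequences (36.1%), the word GTACAC in 42 (35.3%) and the word TGTCGG in 41 (34.5%), against 1.7%, 2.01% and 1.99% of 46629 such sequences of all genes. GTACAC began most often at position -42 and TGTCGG at -47, and in 20 members TGTCGG ran straight into the last 5 bases of GTACAC. The proximal sequence element of such genes is known to lie within this window, and whether these words are part of it was not tested.

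By class, GTACAC was in 18 of the 19 genes of the C47F8.9 group, 9 of 10 smy genes and 6 of 19 in the sls-2 sequence group, which also takes in ZK1251.14. TGTCGG was in 12 of those 19. Neither word was in an sls-1 gene's upstream sequence. The median joint signal was 23.3 over 38 members with GTACAC and 25.2 over 74 without it. It was 26.2 with TGTCGG and 24.0 without, and 27.4 with AACCCG and 24.1 without. These differences are small beside the range of 6.75 to 98.2 within the class.

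Among the 10 members in the top 5% of genes (7.75%, against 3.54% of all genes), TGTCGG was upstream of 3, namely sls-2.4, C52E4.8 and T08G5.11, and GTACAC of 1, sls-2.4. W05B2.8, F54D8.7 and M163.13 had neither word. The 90 bases before the start are shown, 5′ to 3′ on the gene's strand, from the RefSeq assembly. The first are those of 3 genes with high signals near the start (W05B2.8, III:10989589-10989678, F54D8.7, III:5080899-5080988, and M163.13, X:14476777-14476866). Then come R07E5.16 (III:4414095-4414184) and K09B11.12 (IV:13439007-13439096), whose genes are identical to W05B2.8. The last ones are sls-2.11 (IV:9140325-9140414), Y54G9A.8 (II:13717754-13717843) and F07C6.5 (IV:12795494-12795583), in which TGTCGG runs into the rest of GTACAC. Capitals mark the words TGTCTG (first 4 genes), TATATA (first 5 genes), TGTCGG (last 3 genes) and, running on from it, the word GTACAC on this strand.
W05B2.8: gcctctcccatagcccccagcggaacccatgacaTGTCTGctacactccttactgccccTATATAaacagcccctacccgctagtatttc
F54D8.7: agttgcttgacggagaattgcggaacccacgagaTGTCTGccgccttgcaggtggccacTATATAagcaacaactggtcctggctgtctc
M163.13: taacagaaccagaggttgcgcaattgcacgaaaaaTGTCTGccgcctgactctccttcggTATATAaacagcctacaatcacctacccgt
R07E5.16: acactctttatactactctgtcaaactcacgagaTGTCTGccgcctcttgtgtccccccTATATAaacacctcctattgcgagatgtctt
K09B11.12: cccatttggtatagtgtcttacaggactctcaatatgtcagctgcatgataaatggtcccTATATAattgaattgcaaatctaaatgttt
sls-2.11: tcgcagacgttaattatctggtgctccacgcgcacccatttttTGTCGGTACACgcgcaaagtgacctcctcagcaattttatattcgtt
Y54G9A.8: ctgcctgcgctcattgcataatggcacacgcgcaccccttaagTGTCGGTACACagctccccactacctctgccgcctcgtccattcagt
F07C6.5: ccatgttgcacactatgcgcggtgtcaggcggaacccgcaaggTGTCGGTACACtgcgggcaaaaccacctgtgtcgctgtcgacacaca

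The words TGTCTG and TATATA were chosen after the signals had been seen, so their counts are a description only. TATATA, most often at position -30, was upstream of 20 members, 16 of them in the R07E5.16 group, and of 5.07% of distinct upstream sequences of all genes. A TATA box with a proximal sequence element is known from small RNA genes transcribed by RNA polymerase III. Members with TATATA had a median of 24.9 over 18 genes and those without it 24.6 over 94. TGTCTG was upstream of 20 members, 10 of them sls-1 genes, and of 3.81% of distinct upstream sequences of all genes. Members are counted here with repeated copies, and the 12 sls-1 genes had 4 distinct upstream sequences. The median was 40.09 over 14 members with TGTCTG and 23.7 over 98 without it, and 5 of the 10 members in the top 5% had it.

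Both words together were upstream of 4 members, W05B2.8, F54D8.7, M163.13 and R07E5.16, with signals of 98.2, 74.5, 71.8 and 25.4. The first 3 had their summits 5 bp inside, 69 bp upstream and 28 bp upstream of the start, whereas the highest region of R07E5.16 was 690 bp away. Over genes of all kinds, 85 had both words upstream (0.181%). The 66 of these with a region had a median of 25.9, against 23.3 for the rest, and 7 of the 85 were in the top 5%, a level that 3.54% of all genes reached. These 7 include the 3 genes from which the words were chosen. Of the 81 that are not small nuclear RNA genes, 4 were in the top 5% (4.94%).

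Genes that encode partners of these RNAs were looked at with the same window. Of the 80 protein genes in the lists, 69 had a ranked region, with a median of 25.4. A region of the joint thresholded list lay at 1 of them, where 0.756% of protein-coding genes had one. That gene was prp-19, which encodes a ubiquitin ligase of the spliceosome, with 99.98 in the joint ranking and 37.9 and 52.9 in the replicates. In the same list of 28 snRNP protein genes, snrp-40.1 had 72.2 and the branch-point factor gene sfa-1 had 39.99, and the list's median was 21.3.

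All 7 Sm protein genes had a region, with a median of 29.8. The highest were snr-4, which shares the region of C52E4.8, at 66.0, snr-1 at 49.2 and snr-6 at 48.2, and these 3 were in the top 5% of genes with a region, a level that 3.54% of all genes reached. Of the genes of LSm proteins, which are related to the Sm proteins, 7 of 8 had a region, led by lsm-7 at 63.9, lsm-8 at 28.4 and lsm-5 at 26.98. The genes of proteins bound to spliced leader RNA had 33.2 at sut-1, 31.0 at sna-3, 27.8 at sna-1 and none at sna-2.

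Of 25 genes for transcription and 3′ end processing of small nuclear RNAs, 24 had a region, with a median of 26.8. The highest were the Integrator subunit gene ints-4 at 56.0, snpc-1.1, which encodes a subunit of the complex that binds the proximal sequence element, at 45.2, and ints-11 at 39.7. Of 8 genes for maturation and export, 4 had a region, the highest being ran-1 at 25.9, smn-1 at 24.3 and xpo-1 at 23.1. The 5S ribosomal RNA genes had regions in 10 of 16 windows and a median of 35.8, and the highest of them, rrn-4.7 at 96.9 and rrn-4.8 at 57.1, are counted from the same array regions as sls-1.11 and sls-1.9. The next, rrn-4.15, which lies outside the array, had 47.3.

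**Figure D5:**
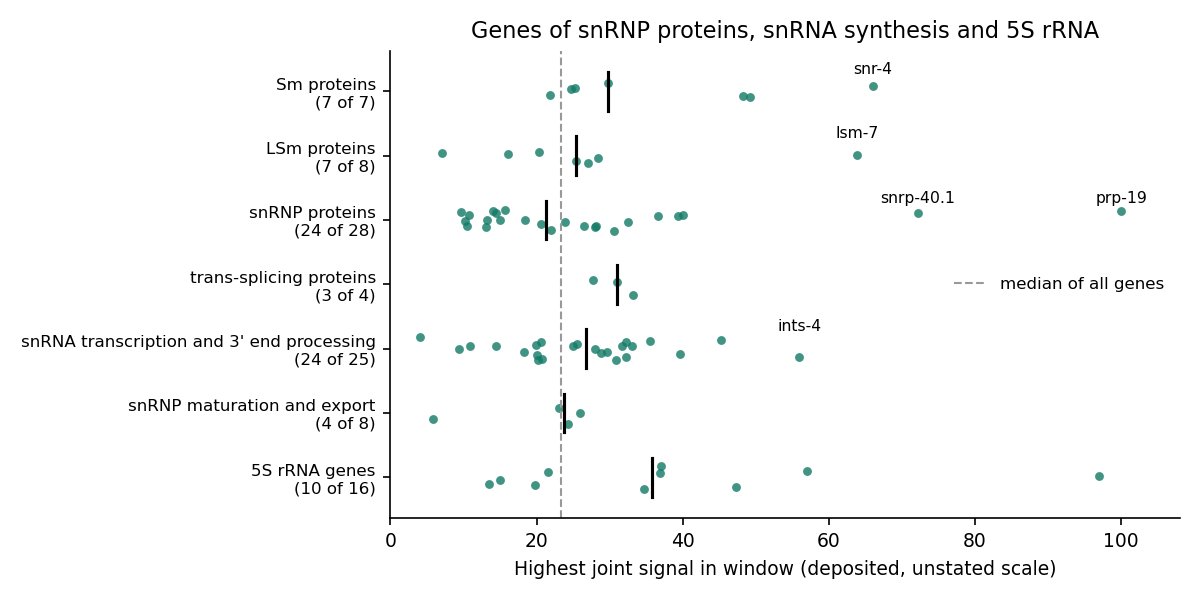
Highest joint signal (horizontal axis, deposited signal on an unstated scale) of the genes in each list (vertical axis, with genes that have a region of those in the gene models); points are genes, bars medians, and the dashed line the median of all genes. prp-19 (99.98), snrp-40.1 (72.2), snr-4 (66.0), lsm-7 (63.9) and ints-4 (56.0) stand apart from their lists.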

How the data were processed

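Regions came from 8 deposited lists of the authors on ce11, per the labels. Peak caller and aligner are not stated in any source used here. In each list, the deposited signal is a value the authors gave to each region, on an unstated scale. The deposited score is an integer that grows with reproducibility. The −log10 of the global IDR deposited in the ranked lists was turned back into an IDR here. The joint ranking held 118176 regions, and the lists of replicates 1 and 2 held 83890 and 68656, of which 70 and 71 passed the threshold. Depth is unknown.

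Members were genes of biotype snRNA in the Ensembl models of WBcel235, named through RefSeq by WormBase ID (129 of 129 matched), because identical copies share 1 Ensembl symbol. Sequences were grouped at 75% identity. Region sequences were aligned with blastn 2.17.0, counting hits of at least 100 bp and 80% identity. Words were counted in 100 bp. The sequence of W05B2.8 itself is not reported here. Replicate values come from each replicate's own list, in the window or, where stated, by overlap with the joint region. Steps used Python 3.11.15, NumPy 2.4.6, pandas 2.3.3, SciPy 1.17.1, edlib 1.3.9.post1 and matplotlib 3.10.9; window assignment was tested on simulated data.

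With 1 group of 2 replicates no test was made. Named genes are those with a region in any thresholded list, the 15 highest, the 5 highest of sls-1 and of sls-2, the 3 lowest, those with none, those high in both replicates, and the 3 highest of each gene list, besides genes named in an explanation. Members and lists were chosen with earlier results of these data known. Alternatives covered the list, the replicate, the window, shared and repeated regions, and identical copies.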

Additional observations from a re-analysis of the deposited data

How the results depend on the processing

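The 129 genes were counted, and their medians compared, under other lists, windows and exclusions. A window from 300 bp upstream and the entry of genes without a region at 0 were chosen after seeing the data. A ranked region was found at 112 members, at 67 when members with a summit nearer to another gene's 5′ end were left out and at 52 when regions that align to several places were left out, which removes members by construction; with 1 replicate alone it was found at 78 to 88. Of the 3 members in the joint thresholded list, the list of replicate 2 held 0 and that of replicate 1 held 1. The count was 5 with a window from 2000 bp upstream to 500 bp downstream, 0 when regions that align to several places were left out, and 11, 5 and 0 for ranked regions at an IDR of 0.05, 0.01 and 0.001. The median of the class over that of all genes was 1.06. It was 1.11 in the widest window, 1.11 with any overlap, 1.01 without members nearer to another gene, 1.00 without regions that align to several places, 1.15 in the window from 300 bp upstream to 200 bp downstream and 1.29 with genes without a region at 0; with 1 replicate alone it was 1.04 to 1.09. The sls-1 ratio of 2.11 was 1.38 to 2.09 with 1 replicate alone. It was 2.79 in a window from 500 bp upstream to 100 bp downstream, where sls-1.12 and sls-1.6 had no region. Without regions that align to several places it was 1.23, but only sls-1.12 was left, so this is the value of 1 gene. With genes without a region at 0 it was 0.438, reversed. The sls-2 ratio of 1.47 was 1.05 to 1.46 with 1 replicate alone, 0.981 and 0.926, both reversed, in the windows from 500 and 300 bp upstream, and 1.06 with genes without a region at 0. Except where a setting removes members by construction, the cause was not tested. In the window from 300 bp upstream no sls-1 gene had a region, so no sls-1 ratio was given. No member lay in the segment of raised signal on X, so leaving that segment out changed nothing. No paired analysis was possible because 1 group has no second group to pair with. Read counts were not analysed here, so what depth limits cannot be stated.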
